A study of Mus musculus with 9 samples.

Results

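The genes described here are 10 genes of α- and β-tubulin, 5 of each, on liver arrays of mice: *Tuba1a*, *Tuba1b*, *Tuba1c*, *Tuba4a*, *Tuba8*, *Tubb2a*, *Tubb2b*, *Tubb4b*, *Tubb5* and *Tubb6*. Each was read from the transcript cluster (the probe group that stands for a gene) that GEO's platform annotation names for it, 1 cluster per gene, out of 22206 clusters of which 19572 had a single symbol. The family was chosen by the measured difference of *Tubb4b* between extract-treated and vehicle-treated ob/ob liver (6.57 against 8.65 log2 on average), and its list was drawn up with these data known. That contrast is therefore described without a test. The contrasts with wild type were tested, but they share the ob/ob vehicle or the extract arrays with it. For *Tubb4b* the choice therefore favours a higher reading of ob/ob vehicle against wild type, and a lower one of the extract.

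The arrays (Clariom S, mouse) measured whole liver of male mice bought at 6 weeks of age, 1 array per mouse as far as the labels tell, in 3 groups of 3. The first group was ob/ob mice (C57BL/6JHamSlc-ob/ob) given 100 mg/kg of *Vigna umbellata* (rice bean) extract by gavage for 42 days. The second was ob/ob mice given vehicle for as long, and the third was wild-type mice (C57BL/6JHamSlc-+/+) given vehicle, all on standard chow. ob/ob mice lack functional leptin from birth, overeat, and become obese with a fatty liver, so both ob/ob groups carry the same mutation. Values are log2 signals as deposited, after the authors' normalization, and their distributions still differed between arrays (medians of 5.07 to 5.36 log2). The labels do not say how the mice were caged or processed together, so p-values measure the spread between these arrays, and their number, 3 per group, limits the precision.

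Tubulin is the building block of microtubules: an α and a β subunit are folded with the help of prefoldin, the chaperonin CCT and tubulin cofactors, join as a dimer, and the dimers polymerize end to end. In hepatocytes microtubules carry secretory vesicles, among them those of lipoproteins and plasma proteins, and colchicine, which binds tubulin, is known to slow that secretion. Cells hold tubulin messenger RNA in check through the nascent protein: when free dimer is plentiful, the ribosome-bound factor TTC5 recognizes the start of the tubulin chain and the messenger is degraded. The isotypes are close to each other in sequence. The probe sequences were not used here, so a signal shared between paralogs, such as the neighbouring *Tuba1a*, *Tuba1b* and *Tuba1c* or *Tubb2a* and *Tubb2b*, was not tested. No 2 of the 10 had the same values on every array.

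Promoter sequences are shown for *Tubb4b*, which brought the family up, for *Tubb2a* and *Tuba1c*, which had the largest differences of ob/ob vehicle from wild type, and for *Tuba1b*, whose difference came next in size. Each is the 150 bases before the annotated start, from RefSeq on build GRCm38.p6, 5′ to 3′ on the gene's strand. Capitals mark matches on either strand to CCAAT (the CCAAT box), GGGCGG (the GC box) or TATAAA (the TATA box). They lie at chr2:25224703-25224852 on the minus strand for *Tubb4b*, chr13:34078009-34078158 on the minus strand for *Tubb2a*, chr15:99029741-99029890 on the plus strand for *Tuba1c* and chr15:98934391-98934540 on the minus strand for *Tuba1b*.
Tubb4b: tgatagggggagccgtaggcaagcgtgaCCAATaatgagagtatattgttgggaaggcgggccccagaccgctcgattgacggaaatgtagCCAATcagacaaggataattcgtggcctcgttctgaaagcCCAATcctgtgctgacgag
Tubb2a: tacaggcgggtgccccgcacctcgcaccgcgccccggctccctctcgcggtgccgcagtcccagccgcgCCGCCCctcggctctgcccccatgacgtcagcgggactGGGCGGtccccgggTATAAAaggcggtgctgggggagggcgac
Tuba1c: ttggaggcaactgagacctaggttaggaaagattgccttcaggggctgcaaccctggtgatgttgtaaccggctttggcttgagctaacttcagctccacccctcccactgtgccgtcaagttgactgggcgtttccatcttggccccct
Tuba1b: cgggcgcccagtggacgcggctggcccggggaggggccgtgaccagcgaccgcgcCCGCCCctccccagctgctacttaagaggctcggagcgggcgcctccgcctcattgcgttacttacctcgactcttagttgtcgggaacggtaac

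The *Tubb4b* window held 3 CCAAT matches and neither of the other motifs. At least 3 such matches stood in 1.2% of 32841 promoter windows of the same length. Windows were read for 8 of the 10 tubulins: *Tubb2b* had no promoter entry, and chromosome 18, which holds *Tubb6*, was left out. Of these 8, *Tubb4b* and *Tubb5* held a CCAAT match, against 24.5% of all windows. *Tubb2a* had 2 GC boxes and a TATA match, *Tuba1b* had 1 GC box and *Tuba1c* had none of the 3 motifs. GC boxes stood in 4 of the 8 (28.6% of all windows) and TATAAA in 1 (7.57%). The windows of the 3 genes that differed most thus had no motif of these 3 in common. A match is a run of letters and does not show a bound site.

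Before the results, 2 arrays need naming. Ob/ob vehicle 3 and wild-type vehicle 3 correlated with their own groups at 0.948 to 0.955, against 0.980 to 0.990 between other arrays of a group, and their signals spread least, with interquartile ranges of 3.26 and 3.01 log2 against 3.36 to 3.85 elsewhere. Olfactory receptor genes, silent in liver, served after the values were seen as a gauge of background: the 97.5th percentile of 1091 of them was 6.44 on ob/ob vehicle 3 and 6.62 on wild-type vehicle 3, against 5.33 to 5.74 on the other 7 arrays. The liver label was borne out by its markers, since all 7 hepatocyte genes measured lay above that limit on every array, with list means of 17.68 to 18.52 log2. Of the 10 tubulins 6 lay above the limit on all 9 arrays. *Tuba1a* and *Tuba1b* lay under it on wild-type vehicle 3 only, and *Tubb2b* and *Tubb6* lay under it on 8 of 9 arrays, so differences in the last pair cannot be told from background.

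In ob/ob vehicle liver the tubulins stood higher than in wild type. *Tubb2a*, *Tuba1c* and *Tubb4b* rose, 3 of 10, where 2.28% of all clusters were called higher (adjusted p under 0.05). None of the 10 fell, where 0.68% were called lower. *Tuba1b* missed the threshold by little. The other 6 had differences of 0.32 to 1.10 log2 and were not called. In 7 of the 10 the ob/ob vehicle and wild-type values did not overlap, with ob/ob vehicle higher, against 9.71% of all clusters, and 7 met the unadjusted criterion of the design text (p under 0.05 with a linear fold over 1.1), against 10.3%. Both counts of 7 include *Tubb6*, which cannot be told from background. The median difference over the 10, *Tubb2b* and *Tubb6* among them, was 1.07 log2, and over all clusters it was -0.06. The 10 were chosen with these data known, so the counts describe them and lend no independent support. In a bulk sample, more cells of a type and more RNA per cell cannot be told apart.

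Among the β-tubulins *Tubb2a*, a gene best known from neurons, differed most. It read 14.12, 11.97 and 12.10 log2 on the ob/ob vehicle arrays, against 7.86, 7.24 and 8.38 in wild type. The groups lay 3.59 log2 apart at their nearest values. The change was 4.90 log2 (29.9-fold; SE 0.96, limma adjusted p = 0.0278).

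*Tubb4b*, an isotype made in most cells and a main β-tubulin of cilia, read 9.03, 8.98 and 7.93 log2 in ob/ob vehicle, against 7.37, 7.11 and 6.72 in wild type. All ob/ob vehicle values were above all wild-type values. Its change of 1.58 log2 (2.99-fold; SE 0.37) lay just past the threshold (limma adjusted p = 0.0489). The gene was chosen by a difference that uses the same ob/ob vehicle arrays, which favours this call.

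*Tubb5*, a β-tubulin of nearly all tissues, read 10.74, 10.03 and 9.52 log2 in ob/ob vehicle, against 9.17, 9.37 and 8.97 in wild type. The groups were 0.15 log2 apart and the difference of 0.93 (SE 0.37) was not called (limma adjusted p = 0.234). *Tubb2b*, which lies beside *Tubb2a* and is likewise known from neurons, differed by 0.65 (SE 0.42, limma adjusted p = 0.481), with overlapping groups. *Tubb6*, a divergent isotype, differed by 1.03 (SE 0.40, limma adjusted p = 0.216), with groups 0.3 log2 apart. Both were within the range of silent genes.

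Among the α-tubulins *Tuba1c*, a widely made isotype, read 16.30, 15.66 and 14.63 log2 in ob/ob vehicle, against 13.69, 12.72 and 11.72 in wild type. The lowest ob/ob vehicle value was 0.94 log2 above the highest wild-type value. The change was 2.82 log2 (7.06-fold; SE 0.58, limma adjusted p = 0.032). In both groups replicate 1 was highest and replicate 3 lowest.

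*Tuba1b*, another widely made isotype, read 10.82, 10.05 and 8.49 log2 in ob/ob vehicle, against 8.15, 7.33 and 6.45 in wild type. The difference was 2.48 log2 (5.57-fold; SE 0.58, limma adjusted p = 0.0517). It was called in 6 of 17 alternative settings, among them the replicate number as a block (limma adjusted p = 0.0333). Without ob/ob vehicle 1 the adjusted p was 0.176. The labels give the replicate numbers no meaning. *Tuba1a*, the α-tubulin of developing neurons, read 7.75, 7.26 and 6.53 log2 in ob/ob vehicle, against 6.44, 5.97 and 5.82 in wild type. These groups were 0.09 log2 apart, and the difference of 1.10 (SE 0.35) was not called (adjusted p = 0.129).

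*Tuba4a*, whose messenger encodes an α-tubulin without the usual final tyrosine, read 11.51, 10.97 and 9.12 log2 in ob/ob vehicle, against 10.88, 9.73 and 9.03 in wild type. The groups overlapped (difference 0.65, SE 0.64, limma adjusted p = 0.667). *Tuba8*, a divergent isotype, read 9.05, 8.44 and 9.09 log2 in ob/ob vehicle, against 8.37, 8.51 and 8.73 in wild type, a difference of 0.32 (SE 0.26, adjusted p = 0.59). It varied least of the 10, by 0.87 log2 over all 9 arrays.

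**Figure D1:**
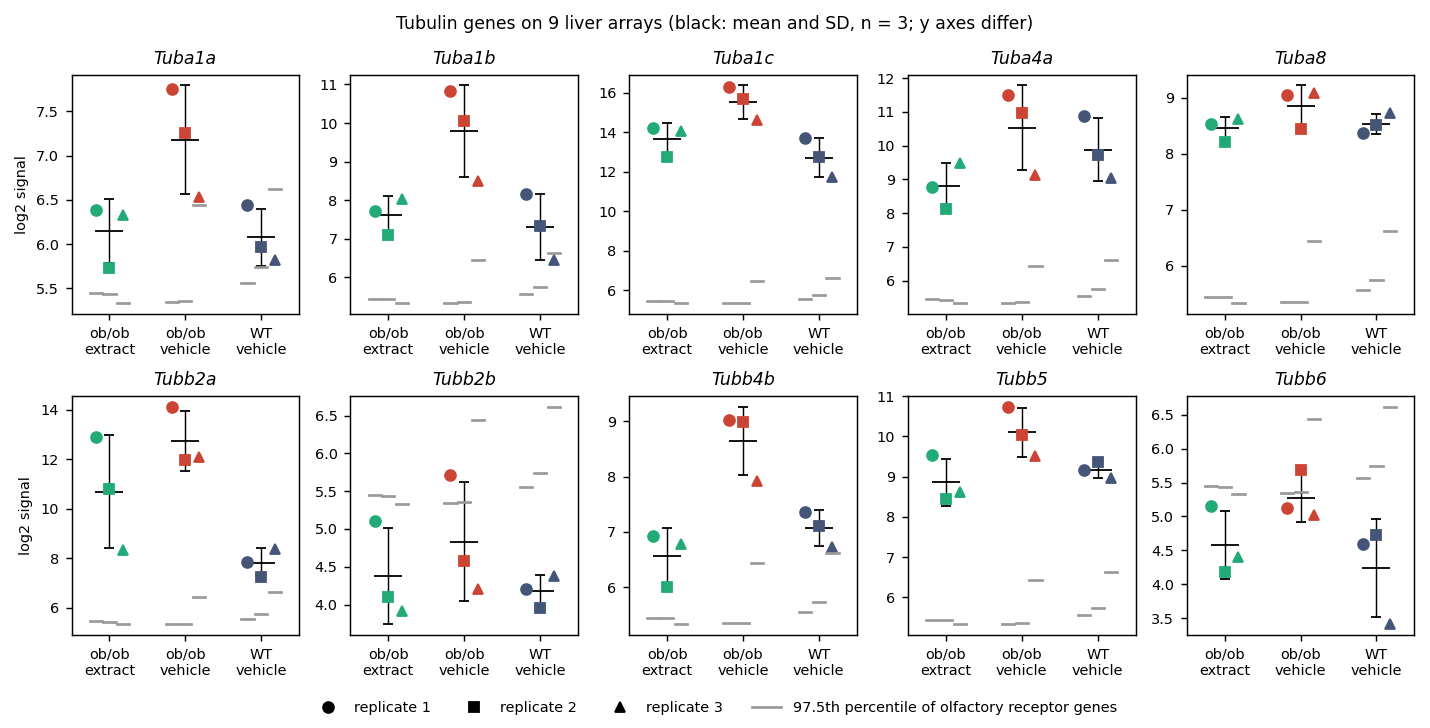
Log2 signal of each tubulin on the 9 arrays (y axes differ), with ob/ob extract left, ob/ob vehicle in the middle and wild type right; symbols give the replicate number, black marks the mean and SD (n = 3), and grey ticks the 97.5th percentile of olfactory receptor genes on that array. Ob/ob vehicle has the highest mean in all 10 panels; *Tubb2a* spans 8.35 to 12.90 log2 in the extract group, and *Tubb2b* and *Tubb6* lie under the grey ticks on 8 of 9 arrays.

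Calls were often lost when 1 array was left out, but calls over all clusters moved too. They numbered 658 with all arrays. They fell to 147 and 262 with wild-type vehicle 2 and 3 left out in turn. With ob/ob vehicle 1 and 2 left out they fell to 173 and 186. Leaving out an extract array gave 327 to 435. Leaving out ob/ob vehicle 3 gave 1679, and wild-type vehicle 1 gave 887. A lost call therefore does not show that a difference rested on that array. *Tubb4b* kept its call without ob/ob vehicle 3 (limma adjusted p = 0.00701) and lost it without any other single array (0.0555 to 0.181). It also lost the call with array medians subtracted (0.0564) and with only the 2 groups compared in the fit (0.112). *Tuba1c* lost its call without ob/ob vehicle 1 or 2 (0.125 and 0.114), wild-type vehicle 2 or 3 (0.117 and 0.0991) or extract 3 (0.0543). With only the 2 groups compared *Tuba1c* lost it too (0.0784), while *Tubb2a* kept its call (0.013). *Tubb2a* lost its call without ob/ob vehicle 1 or 2 (0.109 and 0.0679), wild-type vehicle 2 or 3 (0.117 and 0.067) or extract 2 (0.0572). The extract arrays belong to neither group but enter the same fit, and leaving any of them out did not change these differences. The difference of *Tubb2a*, 4.90 log2 with all arrays, was 5.28 with ob/ob vehicle 2 left out and 5.18 with wild-type vehicle 3 left out. It was 4.21 with ob/ob vehicle 1 left out and 4.61 with wild-type vehicle 2 left out.

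Sizes moved less than calls: over all 17 alternatives *Tubb2a* ran from 4.21 to 5.50 log2, *Tuba1c* from 2.33 to 3.31, *Tuba1b* from 1.96 to 3.12 and *Tubb4b* from 1.38 to 1.94. Without both arrays that stood apart, *Tuba1a* and *Tuba1b* were called as well, 5 of 10, where 7.86% of all clusters were called in either direction, against 2.96% with all arrays. After quantile normalization 0 of 10 were called, where 2.46% of all clusters were called. The limma adjusted p was then 0.0506 for *Tubb2a* and *Tuba1c* and 0.0512 for *Tubb4b*, and *Tuba8* turned just below 0.

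**Figure D2:**
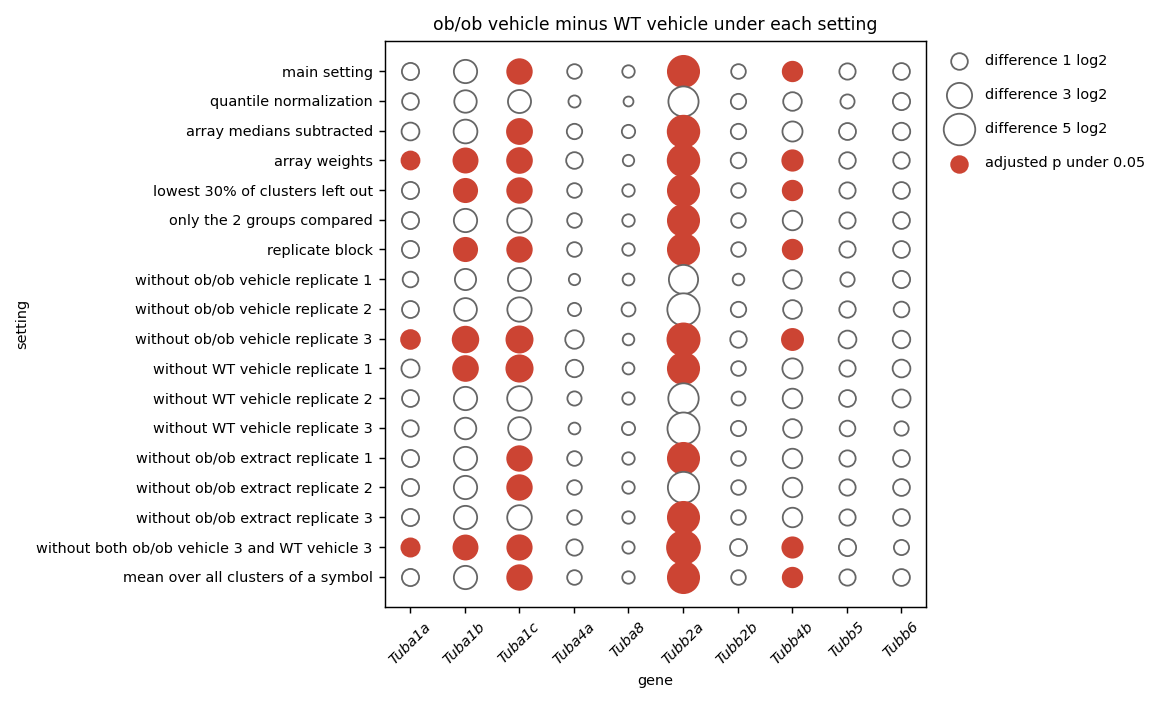
Ob/ob vehicle minus wild-type vehicle for each tubulin (columns) under each setting (rows); circle area grows with the log2 difference and red marks an adjusted p under 0.05. *Tubb2a* and *Tuba1c* are red in most rows, *Tubb4b* in fewer, and no circle is red after quantile normalization or without ob/ob vehicle 1, ob/ob vehicle 2, WT vehicle 2 or WT vehicle 3.

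With the extract the tubulins read lower than in ob/ob vehicle. All 10 means were lower, by 0.40 to 2.17 log2 with a median difference of -1.48 (all clusters, -0.01), and they stayed lower under each of the 17 alternatives. In 4 of them (*Tubb4b*, *Tuba1a*, *Tuba1b* and *Tuba1c*) the groups did not overlap, with the extract lower, as in 6.08% of all clusters. limma called 0 of 22206 clusters in this contrast (0% called), while 1433 met the unadjusted criterion, 2.9% of all clusters on the lower side. The contrast brought the family up, so nothing is read from these counts.

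*Tubb4b* read 6.93, 6.00 and 6.78 log2 with the extract, against 9.03, 8.98 and 7.93 in ob/ob vehicle. Extract and vehicle lay 1.00 log2 apart at their nearest values, the widest such gap among the 10. The difference was -2.08 log2, between -2.46 and -1.79 over the alternatives.

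*Tuba1b* read 7.72, 7.10 and 8.04 log2 with the extract and 10.82, 10.05 and 8.49 in ob/ob vehicle (difference -2.17). *Tuba1c* read 14.22, 12.76 and 14.04 log2 with the extract, against 16.30, 15.66 and 14.63 in ob/ob vehicle (-1.86). *Tuba1a* read 6.39, 5.73 and 6.33 log2 with the extract and 7.75, 7.26 and 6.53 in ob/ob vehicle (-1.03). These 3 neighbouring genes had gaps of 0.45, 0.41 and 0.14 log2 between the groups.

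*Tubb2a* was the least even. It read 12.90, 10.80 and 8.35 log2 with the extract, the widest spread of any of the 10 in any group (SD 2.28), and its lowest extract value lay within the wild-type range of 7.24 to 8.38. Its difference from ob/ob vehicle was -2.05 log2 and moved between -3.15 without extract 1 and -0.88 without extract 3.

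*Tuba4a* read 8.79, 8.12 and 9.49 log2 with the extract (-1.73 against ob/ob vehicle), *Tubb5* 9.53, 8.44 and 8.62 (-1.23) and *Tuba8* 8.53, 8.22 and 8.62 (-0.40). Their extract values overlapped with those of ob/ob vehicle, for *Tubb5* by 0.01 log2. The other 2, *Tubb6* (-0.69) and *Tubb2b* (-0.46), were in the range of silent genes.

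Extract-treated ob/ob liver and wild type differed in none of the 10 by the test: 0 were called, where 1.29% of all clusters were, and 1 (*Tubb2a*, higher) met the unadjusted criterion, as 8.21% did. For 4 genes the extract mean was the lowest of the 3 groups (*Tuba4a*, *Tuba8*, *Tubb4b* and *Tubb5*) and for 6 it lay between ob/ob vehicle and wild type. The median difference was 0.13 log2. *Tubb4b* averaged 6.57 ± 0.50 log2 with the extract and 7.07 ± 0.33 in wild type (SD, n = 3), a difference of -0.50 with a 95% interval of -1.31 to 0.32 (limma adjusted p = 0.576). *Tubb2a* averaged 10.68 ± 2.28 log2 with the extract and 7.83 ± 0.57 in wild type. Its difference of 2.86 had an interval of 0.72 to 4.99 before adjustment, and an adjusted p of 0.212. *Tuba1c*, at 13.67 ± 0.80 log2 with the extract, against 12.71 ± 0.99 in wild type, differed by 0.96 (-0.32 to 2.25, adjusted p = 0.489), and *Tuba4a*, at 8.80 ± 0.69, against 9.88 ± 0.93, by -1.08 (-2.50 to 0.34, adjusted p = 0.484). The other 6 had differences of -0.31 to 0.34 log2. These intervals are wide, and a missed threshold does not show equal levels.

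The arrays of a group differed among themselves across the family. Ob/ob vehicle 1 held the highest of all 9 values in 8 of the 10 genes, and ob/ob vehicle 3 the lowest of its group in 8. Extract 2 was the lowest extract array in 8 genes, and wild-type vehicle 3 the lowest wild-type array in 7. Centred on each gene's mean, the median over the 10 was 1.48, 1.11 and 0.29 log2 on the ob/ob vehicle arrays, while the median over all clusters was within 0.05 of 0 on each array. The narrower range and higher background of ob/ob vehicle 3 and wild-type vehicle 3 moved with these low readings, and their part in them was not tested.

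Another 10 tubulin genes were measured: *Tuba3a*, *Tuba3b*, *Tubal3*, *Tubb1*, *Tubb3*, *Tubb4a*, the microtubule-nucleating γ-tubulins *Tubg1* and *Tubg2*, and the centriolar δ- and ε-tubulins *Tubd1* and *Tube1*. None was called between ob/ob vehicle and wild type by limma, where 2.96% of all clusters were. At an unadjusted p under 0.05 the count was also 0 of 10, where 17% of all clusters had such a p. Counts of 0 among 10 genes lie close to these shares. The median difference was 0.10 log2, with a range of -0.21 for *Tubb1*, the platelet isotype, to 0.40 for *Tubb4a*. With the extract against ob/ob vehicle they ran from -0.52 (*Tube1*) to 0.31 (*Tubal3*), and with the extract against wild type from -0.32 (*Tubg2*) to 0.24 (*Tubd1*). In both contrasts 0 were called and 0 had an unadjusted p under 0.05. Against wild type 1.29% of all clusters were called and 14% had such a p, and against ob/ob vehicle 0% were called. *Tuba3a*, *Tubal3*, *Tubb1*, *Tubb3*, a marker of neurons, and *Tube1* lay within the range of silent genes on all 9 arrays. *Tubg2*, *Tubb4a*, *Tuba3b* and *Tubg1* lay above it on 2, 4, 5 and 6 arrays. *Tubd1*, above it on 7, was the only gene of the 10 with separate groups, at 6.05 to 6.37 log2 in ob/ob vehicle, against 5.82 to 5.96 in wild type (limma adjusted p = 0.511). Of all clusters 9.71% had groups apart in that direction. None of these 10 lay above it on all 9 arrays, as 6 of the first 10 did, so the 2 sets were not read at like signal levels.

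**Figure D3:**
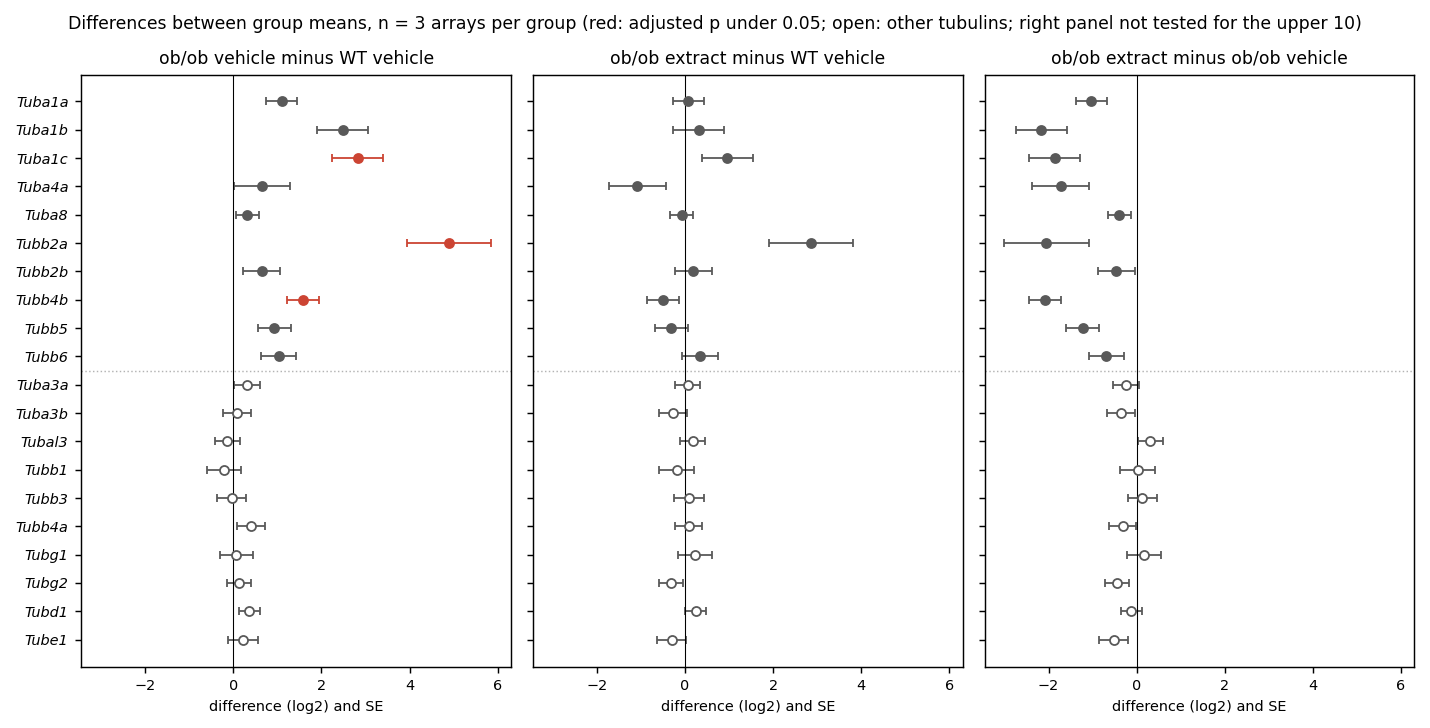
Differences between group means with their SE (log2, n = 3 arrays per group) for the 10 tubulins (filled, above the dotted line) and 10 other tubulins (open); red marks an adjusted p under 0.05, and the right panel was not tested for the upper 10. The filled points lie right of 0 in the left panel, by 0.32 to 4.90, and left of 0 in the right panel, by 0.40 to 2.17. The open points stay within 0.52 of 0, and none of those genes lay above the range of silent genes on all 9 arrays.

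Genes that fold, modify and organize tubulin were taken from lists chosen with earlier results known. In ob/ob vehicle against wild type 0 of 10 tubulin cofactor and autoregulation genes, 0 of 13 chaperonin and prefoldin genes, 0 of 11 tubulin-modifying enzymes, 0 of 20 nucleators, microtubule-associated proteins and motors and 0 of 9 other cytoskeletal genes were called by limma. Of all clusters 2.96% were called, so a count of 0 in lists of this size lies close to that share. At an unadjusted p under 0.05 the counts were 3, 4, 1, 5 and 1, where 17% of all clusters had such a p. The 4 chaperonin and prefoldin genes were 1 higher and 3 lower, the 5 of the motor list 4 higher and 1 lower, and the others higher. The median differences of these lists ran from 0.04 to 0.35 log2, and single differences from -1.20 to 1.54. The 10 tubulins ran from 0.32 to 4.90, and most of them lay inside that range of single differences. Only *Tubb2a*, *Tuba1c*, *Tuba1b* and *Tubb4b* lay above it. With the extract against wild type 0 of these genes were called, where 1.29% of all clusters were. The counts at an unadjusted p under 0.05 were 1, 0, 1, 7 and 2 (14% of all clusters). Of the 20 nucleators, microtubule-associated proteins and motors 7 had higher values in all extract than in all wild-type arrays, as 11.1% of all clusters had.

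The cofactor-like gene *Tbcel* averaged 8.90 log2 in ob/ob vehicle, against 7.65 in wild type (difference 1.26, SE 0.44, limma adjusted p = 0.169). *Tbcd*, a cofactor that acts on β-tubulin, differed by 0.74 (adjusted p = 0.21). The prefoldin subunit *Pfdn2* was at -0.89 (SE 0.24, adjusted p = 0.0857) and the chaperonin subunit *Cct8* at -1.20 (SE 0.34, adjusted p = 0.096), both with groups that did not overlap. They stood against their own list, in which 9 of 13 genes were above 0. For *Ttc5* and *Scaper*, named for their part in tubulin autoregulation and outside the naming rule, the differences were 0.70 and 0.73 (adjusted p = 0.367 and 0.234). *Ttc5* lay within the range of silent genes on all 9 arrays. None of these 6 was past the threshold.

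The plus-end binding protein gene *Mapre1* averaged 9.15 log2 in ob/ob vehicle, against 8.04 in wild type (1.11, SE 0.29, limma adjusted p = 0.0724), and *Kif5b*, the kinesin heavy chain, 11.50 and 9.96 (1.54, SE 0.47, adjusted p = 0.118). Both had groups apart. With the extract they averaged 8.89 and 11.17 log2, differences of -0.25 and -0.33 from ob/ob vehicle. The tubulin deacetylase gene *Sirt2* (1.21, adjusted p = 0.284), the tubulin acetyltransferase gene *Atat1* (-0.87, adjusted p = 0.307), cofilin, *Cfl1* (0.96, adjusted p = 0.291), and thymosin β4, *Tmsb4x* (1.18, adjusted p = 0.316), were not called either. *Tmsb4x* averaged 11.59 log2 with the extract and 13.11 in ob/ob vehicle (-1.52), and its groups did not overlap there. Of the 9 other cytoskeletal genes 7 were lower with the extract than in ob/ob vehicle, with a median of -0.48.

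Of 15 cell cycle genes 1 rose in ob/ob vehicle and 0 fell, where 2.28% of all clusters were called higher and 0.68% lower. It was *Birc5*, the survivin gene of the mitotic spindle (5.41 ± 0.26 log2 in ob/ob vehicle, against 4.33 ± 0.25 in wild type, n = 3; change 1.07, SE 0.24, limma adjusted p = 0.0449). It lay within the range of silent genes on all 9 arrays, and its call was lost without any single array. The mean level of the list was 4.54 to 4.84 log2 in ob/ob vehicle and 4.18 to 4.50 in wild type, with 0 to 6 of the 15 genes above that range on any array. The part of dividing cells in the tubulin values was not tested.

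**Figure D4:**
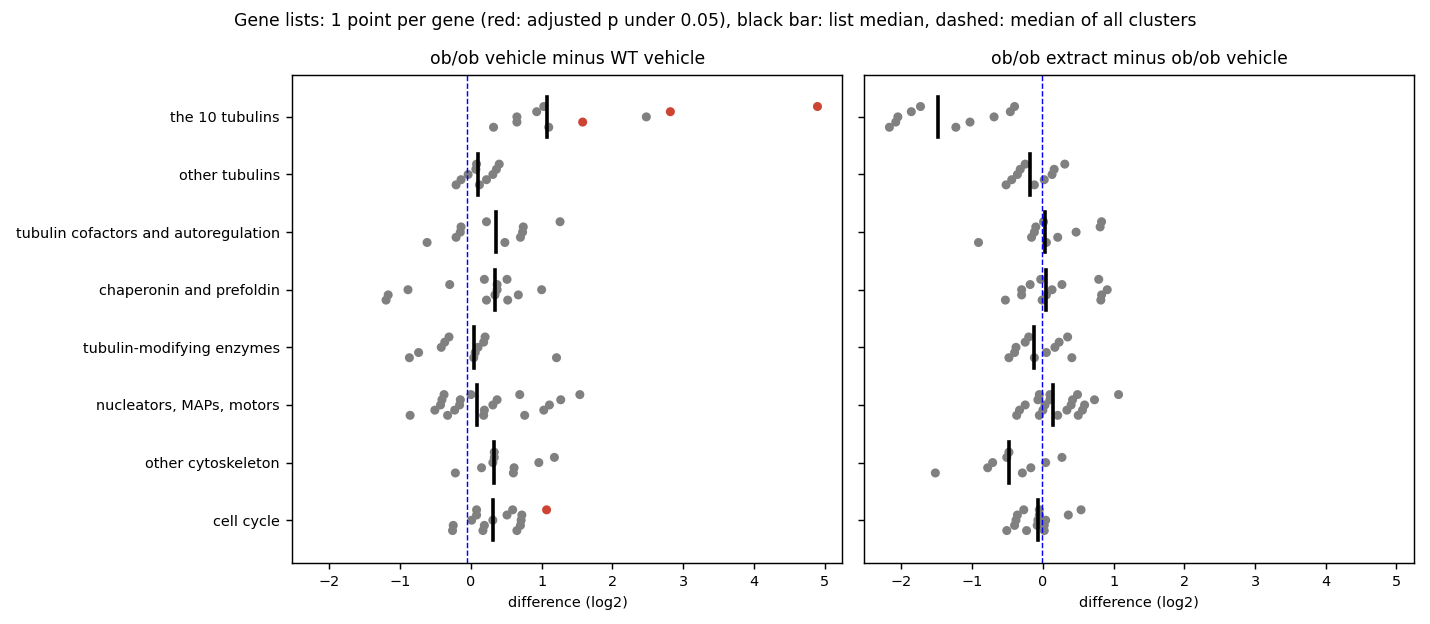
Differences of single genes (points) by list, for ob/ob vehicle minus wild type (left) and ob/ob extract minus ob/ob vehicle (right), in log2; black bars are list medians, the dashed line the median of all clusters, and red an adjusted p under 0.05. The 10 tubulins have medians of 1.07 and -1.48, and the other 7 lists medians between 0.04 and 0.35 on the left and between -0.48 and 0.15 on the right.

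Markers of liver cell types were read beside these differences, and limma called 0 of them in any of the 3 comparisons. Of all clusters it called 2.96% for ob/ob vehicle against wild type, 1.29% for extract against wild type and 0% for extract against ob/ob vehicle. Macrophage markers (11 of 12 measured) had mean levels of 5.47 to 6.37 log2 with the extract, 6.49 to 6.54 in ob/ob vehicle and 5.93 to 6.51 in wild type. They were thus lower on all extract arrays than on all ob/ob vehicle arrays, with 3 of the 11 genes lower at an unadjusted p under 0.05 (2.9% of all clusters), and their ob/ob vehicle and wild-type ranges overlapped by 0.02 log2. Hepatocyte markers (7 of 8) read 17.68 to 18.22 log2 in ob/ob vehicle and 18.25 to 18.52 in wild type, with 3 of the 7 lower at an unadjusted p under 0.05 (6.72% of all clusters). *Alb* on all arrays, *Ttr* on 8, *Apoa1* on the 3 wild-type arrays and *Serpina1c* on 1 of them read at the array's maximum, where differences are cut short. Endothelial markers (7 of 7) read 7.61 to 7.88 log2 with the extract, 7.56 to 8.47 in ob/ob vehicle and 7.58 to 8.16 in wild type. Stellate and fibroblast markers (8 of 8) read 6.93 to 7.21, 6.79 to 7.45 and 6.75 to 7.33 log2 in the same groups, and both lists overlapped between groups. Of 6 bile duct markers at most 2 were above the range of silent genes on any array, of 8 T and NK cell markers 1, of 3 B cell markers 0, of 5 neutrophil markers at most 2 and of 3 erythroid and platelet markers at most 2. The part of these cells in the tubulin values was not tested.

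The genes most like *Tubb4b* were sought among 17066 named genes by the root mean square difference between log2 values centred on each gene's mean, over 9 arrays. The nearest was *Eef1b2*, a translation elongation factor (0.38 log2), with 13.35 to 13.54 log2 with the extract, 15.27 to 15.62 in ob/ob vehicle and 13.48 to 14.56 in wild type. The sialyltransferase *St6gal1* followed (0.42), with 6.81 to 7.42 log2 with the extract, 8.52 to 9.35 in ob/ob vehicle and 6.55 to 7.04 in wild type. Next came *Tmem143* (0.43), the semaphorin receptor *Plxnd1* (0.45), *Tuba1a* (0.45) and the carboxypeptidase *Scpep1* (0.45). *Plxnd1* read 4.55 to 5.12 log2 with the extract, 5.53 to 6.63 in ob/ob vehicle and 4.95 to 5.62 in wild type, and *Tmem143* 4.97 to 5.84, 5.98 to 7.70 and 4.55 to 5.37. *Scpep1* read 6.83 to 7.24 log2 with the extract, 7.58 to 8.82 in ob/ob vehicle and 6.73 to 7.73 in wild type. *Plxnd1* lay within the range of silent genes on all extract and wild-type arrays, and *Tmem143* on all wild-type and 2 extract arrays. All of these were highest in ob/ob vehicle on average, as the measure of likeness requires.

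Within the family *Tuba1a* stood at rank 5 and *Tubb5* at rank 7 (0.46 log2), followed by *Tuba1b* at 38 (0.57) and *Tuba4a* at 76 (0.61). *Tubb6* (188), *Tuba1c* (504), *Tubb2b* (905) and *Tuba8* (1937) were further off. *Tubb2a* came at 16974 of 17066, at 2.00 log2. Its values ran over 6.88 log2 and those of *Tubb4b* over 3.03, and on extract 1 it read 12.90, above its mean over the 9 arrays, while *Tubb4b* read 6.93, below its own. The ranks describe these 9 arrays, in which genes share groups, background and normalization.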

How the data were processed

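Total RNA of whole liver, 100 ng per sample, was labelled and hybridized to Clariom S mouse arrays. The authors deposited a table of log2 signals with 1 value per cluster and array. The software was Transcriptome Analysis Console 4.0.2, run with SST-RMA (robust multi-chip averaging after a transformation that widens fold changes), per the design text of the series. Differences depend on that step. Detection calls were not used here, and no genome build of the array is given in the sources used here.

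Symbols came from GEO's platform annotation. The 10 tubulin identifiers matched RefSeq GRCm38.p6 with the same symbols. For genes with several clusters the one with the highest mean was used.

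limma 3.58.1 in R 4.3.3 fitted a mean per group over all 9 arrays (6 residual and 4.45 prior degrees of freedom), close to the moderated analysis of variance that the design text names. The 22206 clusters were adjusted together by Benjamini-Hochberg, with calls at an adjusted p under 0.05. The design text's own criterion, without adjustment, was a p under 0.05 and a fold over 1.1 in linear terms. The fit was tested on simulated data with known changes. Other settings were quantile normalization, median centring, array weights, leaving out the lowest 30% of clusters, fitting only 2 groups, a replicate block, leaving out arrays, and averaging clusters.

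The genes named are the 10 tubulins, the 10 other tubulins, up to 4 called genes of each list by smallest p (2 where none was called) and the 6 genes nearest to *Tubb4b*. *Ttc5* and *Scaper* stand outside this rule. The members and lists were chosen with earlier results of these data known.

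Same-numbered arrays deviated together between ob/ob vehicle and wild type (correlations 0.256, 0.262 and 0.450). Between extract and either group the correlations ran from -0.208 to 0.0157. Deviations from a group's mean cancel within the group. Both arrays that stood apart carry the same number, which can make the other numbers correlate as well. The correlations therefore cannot show pairing, and the labels give the numbers no meaning. The main fit used no replicate block.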

Additional observations from a re-analysis of the deposited data

How the results depend on the processing

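Between ob/ob vehicle and wild type 3 tubulins were called. The count was 5 with array weights (9.62% of all clusters called) and without both arrays that stood apart (7.86%). It was 4 with the lowest 30% of clusters left out (4.62%) and 3 with the clusters of a symbol averaged (2.99%). It was 2 with array medians subtracted (2.78%), 1 with only the 2 groups in the fit (0.932%) and 0 after quantile normalization (2.46%). The unadjusted criterion gave 7 (17%), and leaving out 1 array gave 0 to 5 (0.662% to 7.56%). In the main setting 2.96% of all clusters were called. A count of 0 came when wild-type vehicle 2, wild-type vehicle 3, ob/ob vehicle 1 or ob/ob vehicle 2 was the array left out and after quantile normalization, and 5 without ob/ob vehicle 3. The cause was not tested. With the replicate block 4 were called (2.61% of all clusters), *Tuba1b* being added (limma adjusted p = 0.0333). The block called no other tubulin and ended no tubulin's call. It ended that of *Birc5*. Between extract and wild type 0 were called under each setting, 1 by the unadjusted criterion, and leaving out 1 array gave 0 throughout. The median difference between extract and ob/ob vehicle ran from -1.91 to -1.08 log2 when 1 array was left out.

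Of 340 values of single tubulins in the tested comparisons under alternatives, 33 crossed the threshold (24 lost and 9 gained a call) and 0 called values changed sign. Counts over all clusters moved more. Between ob/ob vehicle and wild type they were 658 in the main setting, 2137 with array weights, 207 with 2 groups only, 1745 without both arrays that stood apart, 3771 by the unadjusted criterion and 147 to 1679 leaving out 1 array. Between extract and wild type they were 287, 796, 345, 595, 3115 and 77 to 598. Between extract and ob/ob vehicle they were 0, 106, 0, 360, 1433 and 0 to 51. Quantile normalization took the share of higher calls to 53.1% against 77.1% for ob/ob vehicle and to 61.2% against 75.6% for extract, both against wild type. Subtracting array medians moved the median of all clusters from -0.06 to 0.06 for ob/ob vehicle and from -0.05 to 0.09 for extract.

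Of 357 counts of called genes in the other lists 34 moved, by at most 3 genes. Signal over background limits *Tubb2b*, *Tubb6*, *Ttc5* and most cell cycle genes, and 3 arrays per group limit every call.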
